A study of Homo sapiens with 24 samples.

Results

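The genes described here are 10 genes of the integrated stress response: ATF4, ATF5, DDIT3, PPP1R15A, TRIB3, DDIT4, SESN2, ASNS, PSAT1 and CHAC1. They were taken by RefSeq symbol, with every peak on any of their transcripts, in peak lists of N1-methyladenosine (m1A), a methylated form of the RNA base adenosine. Of the 10 genes 9 had a peak in at least 1 list, among 9319 genes with a peak in the series. Their 17 transcripts with a peak carried 77 of the 61237 peaks. Of the 77 peaks many repeat 1 signal on several transcripts of a gene, and they were not counted as replicates. How many genes could have had a peak was not counted, so 9 of 10 stands without a share of all genes.

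All libraries came from polyadenylated RNA of HEK293T, a human embryonic kidney cell line. The 24 libraries form 12 groups of 2 replicates. Wild-type cells (WT) and cells with ALKBH3 knocked out (KO), both without treatment, had input libraries, libraries immunoprecipitated with an antibody to m1A (IP), and demethylase-treated libraries. A second set of input and IP libraries came from wild-type cells that were untreated (UT), exposed to 50 µM hydrogen peroxide for 30 min (H2O2) or deprived of serum for 16 h (Starve). The sources used here do not say whether the knockout line is 1 clone, or whether replicates came from separate cultures. Each of the 10 IP libraries has a peak list, named here by condition and replicate. The lists held 2175 to 11362 peaks. Their UT pair was taken by file naming: the labels' descriptions of UT samples name the Starve lists instead, and the peak names inside the UT lists carry the letters WT. Every comparison with UT rests on that naming. The knockout could not be checked from the lists, since ALKBH3 itself had 0 peaks in all 10. Of 7 genes known in this cell line 6 had a peak. PAX2 and KRT18 were called in 1 list each, NEFL, NEFM, VIM and KRT8 in 3 to 5, and LHX1 in none. Of 5 markers of other cell types (PTPRC, ALB, COL1A1, PECAM1 and GFAP) 1 had a peak, COL1A1 in both UT lists. A peak in any list is a loose rule that 9319 genes met, so this is no check of the cells' identity.

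In the integrated stress response, stress kinases phosphorylate the initiation factor eIF2α, which lowers translation in general while a few messages, ATF4 and ATF5 among them, are translated more through upstream open reading frames. ATF4 and its partners then bind C/EBP-ATF response elements of genes for amino acid synthesis, transport and feedback control. ALKBH3 is a demethylase that acts on m1A and other alkylated bases, and m1A in messages is known from regions near the transcript start.

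The C/EBP-ATF response element is shown first, since it is the DNA sequence through which several of these genes are known to be induced together. The letters TGATGNAA were searched on both strands in RefSeq promoter sequences of build GRCh38.p14, from 250 bases before to 50 after a gene start. By symbol all 10 genes were found among these promoter sequences, with 17 promoters in all, since several have more than 1 start. The letters were in 2 of these 17, 1 of the ASNS starts and that of CHAC1, against 3.62% of 35116 promoters. They were also in 15 of 74 promoters of a wider list of 70 pathway genes. The capitals mark the match.
ASNS: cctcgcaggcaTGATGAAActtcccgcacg
CHAC1: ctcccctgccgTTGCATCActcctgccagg
The ASNS stretch is chr7:97872458-97872487 on the minus strand, with the match starting at position -68 from the gene start. The CHAC1 stretch is chr15:40953251-40953280 on the plus strand, with the match on the opposite strand from position -209. A match in these windows is a description of letters, and the other 15 promoters may hold the element elsewhere.

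Across conditions the genes differed in how widely they were called. ATF5 and SESN2 had a peak in 8 of 10 lists, TRIB3 and PSAT1 in 5, ATF4, CHAC1 and PPP1R15A in 3, and DDIT4 and ASNS in 2. DDIT3, which encodes the pro-apoptotic transcription factor CHOP, had none in any list, although the gene table holds 9 transcripts of it. The median gene of the 10 was called in 3 lists, as was the median of the 70 wider pathway genes and of all genes with a peak. The first 2 medians include genes without a peak and the last does not, so the 3 are not taken over like sets.

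**Figure D1:**
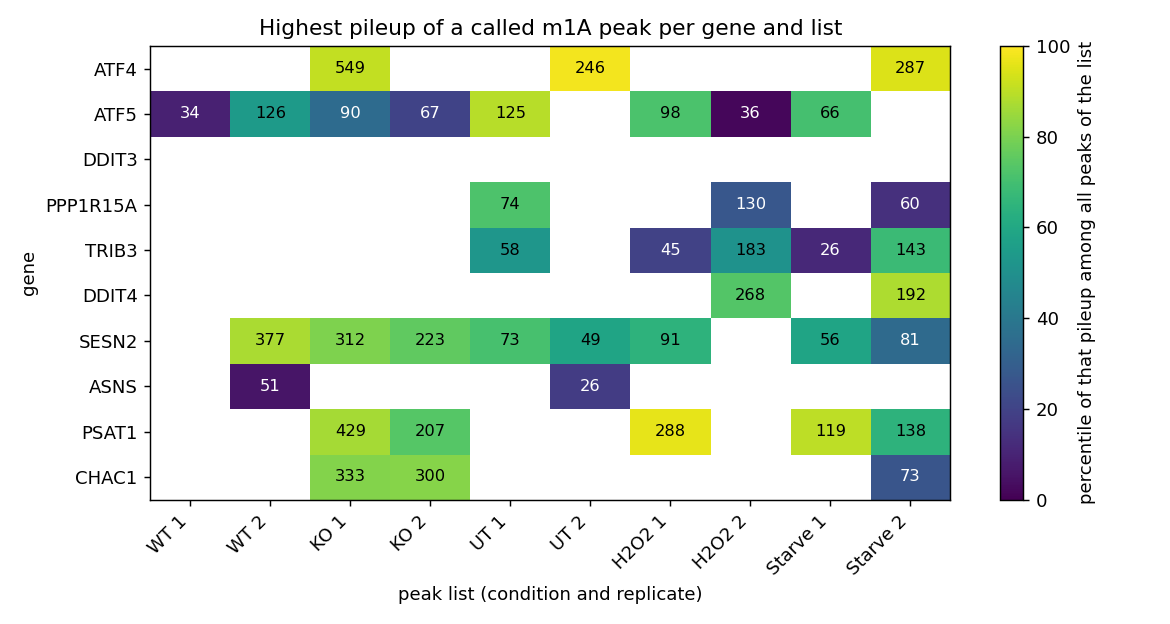
Highest pileup (number on each cell, IP reads at the summit) of the called peaks of each gene (rows) in each list (columns). The colour gives the percentile of that pileup among all peaks of the same list, and white cells were not called. ATF5 and SESN2 fill 8 columns each, DDIT3 none.

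Counted by list, WT 1 held 1 of the 10 genes, where 13.5% of the 9319 genes had a peak. WT 2 held 3 (21.9% of all genes), KO 1 held 5 (22.1%) and KO 2 held 4 (22.4%). The UT lists held 4 and 3 (39.7% and 45.4%), the H2O2 lists 4 and 4 (37.5% and 21.6%), and the Starve lists 4 and 7 (51.9% and 41.2%). The KO lists thus held 4 or 5 of these genes at about 22% of all genes, whereas UT 2 held 3 of them at 45.4%. This was not particular to KO, since H2O2 2 held 4 at 21.6% and WT 2 held 3 at 21.9%. No test was made of these shares, since 10 genes of 1 library are not replicates of a condition.

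Replicates of KO shared most of these genes, and replicates of the stress series shared few. Of 5 genes called in either KO list, 4 had an overlapping region in both (ATF5, CHAC1, PSAT1 and SESN2), against 53.4% of all genes. In WT it was 1 of 3 (ATF5), against 24.8%. In Starve it was 2 of 8 (TRIB3 and SESN2), against 15.1%, and in UT and H2O2 0 of 6 each, against 14.5% and 11.4%. Peaks merged by any overlap gave 51 regions on these transcripts, of which 35 were in 1 list only. That is 68.6%, against 73.4% of 37675 regions of all genes. A call in 1 list of UT, H2O2 or Starve was therefore rarely repeated in the other list, for these genes as for all.

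ATF5, a transcription factor of the ATF4 family, carried the region shared by most conditions. On NM_001193646 a region at nt 49 to 287 from the transcript start was called in 7 lists covering all 5 conditions. Its pileup was 34 and 126 in WT, 90 and 67 in KO, 125 in UT 1, 74 in H2O2 1 and 66 in Starve 1. Both lists of each genotype thus held it. Within their own lists these pileups ranged from the 8.99th percentile in WT 1 to the 89.2nd in UT 1. The fold over control was 1.78 and 4.54 in WT, 5.16 and 3.88 in KO, 11.4 in UT 1, 6.91 in H2O2 1 and 6.77 in Starve 1. All 7 summits lay between nt 120 and nt 173. The second list of UT, H2O2 and Starve did not hold this region.

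ATF5 was also called further along the transcript under stress, each time in a single list. H2O2 1 had a peak at nt 862 to 961 of NM_001193646 with a fold of 2.09, H2O2 2 one at nt 1376 to 1475 (3.21), and Starve 1 one at nt 1651 to 1750 (2.42). These 3 peaks recurred on NM_001290746 at positions 29 nt lower and on NM_012068 at positions 205 nt higher, so they are 1 signal each seen on several transcripts. The H2O2 1 peak near the start of NM_001193646 also recurred 205 nt higher on NM_012068, at nt 315 to 436 with the same pileup of 74. A WT 2 peak at nt 356 to 455 of NM_012068 overlapped it there. The summits of these 2 peaks, at nt 366 and nt 412, are thus beyond 300 nt on that transcript. Not every ATF5 peak followed that pattern. NM_012068 alone had a peak at nt 70 to 169 in UT 1 (fold 5.89) and one at nt 749 to 853 in H2O2 1 (7.78), and NM_001290746 had no peak near its start.

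ATF4, the central transcription factor of the response, had high pileups with low folds for their lists. Its peaks were at nt 63 to 166 of NM_001675 in KO 1 (pileup 549, fold 3.15), at nt 980 to 1254 in Starve 2 (287, fold 1.59) and at nt 1750 to 1849 in UT 2 (236, fold 1.91). No 2 lists shared a position, and KO 2, WT and H2O2 held no ATF4 peak. The UT 2 signal was also called on NM_182810, 607 nt nearer its start, with a pileup of 246. Within their lists the 4 pileups stood at the 90.7th to 98.2nd percentile and the folds at the 0.876th to 32.1st.

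The control level behind each peak could be recovered. A peak's pileup plus 1, divided by its fold, less 1, gives the level of control reads that the peak caller used. With that level a Poisson tail returned the deposited −log10 p-value within 1% for 59931 of 59993 peaks that could be computed. In each list many peaks share 1 low control level, called the floor here, 7.4 reads in UT 2 up to 16.7 in WT 2. In WT 1 16 peaks lay below it, and in the other lists 0 did. It is taken here as the level that MACS2 falls back on where local control coverage is not above the library-wide background. Of the 77 peaks 25 sat at that floor (32.5%), against 50.2% of all peaks at or below it.

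ATF4 lay far above the floor, at 174 reads in KO 1, 180 in Starve 2 and 123 in UT 2, between the 92.3rd and 99.3rd percentile of control levels in those lists. PSAT1 followed, with 14 peaks between 30.7 and 127 control reads, none at the floor. ATF5 stood at the other end, with 13 of 20 peaks at the floor, and ASNS with 7 of 8. Over all 77 peaks the median control level was at the 69.5th percentile of its list and the median fold at the 32.1st, with the median pileup at the 51.0th. Pooled over isoform repeats, the peaks thus had middling pileups and control levels above the middle of their lists, but the genes differed. The median control percentile was 24.1 for ASNS, 30.5 for ATF5 and 36.9 for TRIB3. For every other gene with a peak it was 64.4 (PPP1R15A) or higher. Since many peaks tie at the floor, a level just above it already ranks high. A PPP1R15A peak in UT 1 with 10.27 control reads, over a floor of 10.03, stood at the 62.4th percentile. Of the 77 folds 4 were at or above the 90th percentile of their list. Control levels are known only where a peak was called, so for an uncalled region less transcript and less m1A cannot be told apart.

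**Figure D2:**
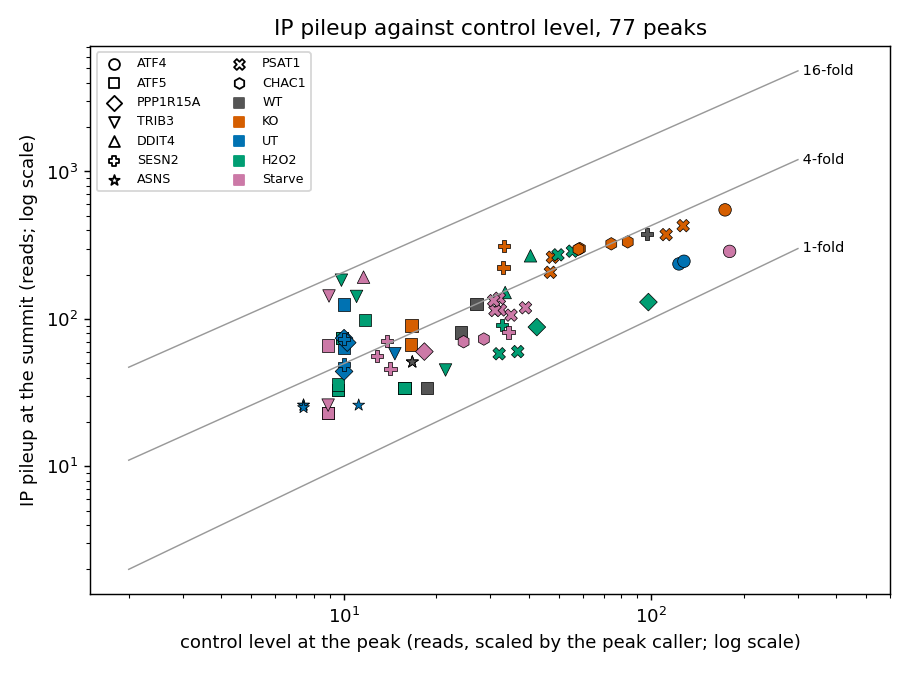
IP pileup at the summit (reads, log scale) against the control level implied by pileup and fold (reads, log scale) for the 77 peaks, with symbols for genes, colours for conditions and grey lines for equal folds. ATF4 lies at the right with 123 to 180 control reads and folds of 1.59 to 3.15, and ATF5 at the left near the floor.

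The feedback regulators PPP1R15A and TRIB3 had peaks in UT, H2O2 and Starve lists and in no WT or KO list. PPP1R15A is the stress-induced subunit that directs a phosphatase to eIF2α. Its transcript NM_014330 had 3 peaks in UT 1, with summits at nt 759, 1118 and 1530 and folds of 6.80, 4.08 and 6.21. In H2O2 2 it had peaks at nt 230 to 329 (2.05) and nt 2043 to 2142 (1.32), and in Starve 2 one at nt 258 to 357 (3.16). The H2O2 2 and Starve 2 peaks near the start overlapped, and no UT peak lay there.

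TRIB3, a pseudokinase that is induced by and restrains ATF4, was called in 5 lists at 4 places of NM_021158. Starve 1 and Starve 2 shared a region at nt 151 to 348, with pileups of 26 and 143 and folds of 2.73 and 14.5. Both of these sat at the control floor, 8.90 and 8.96 reads. UT 1 and H2O2 1 shared another at nt 383 to 489, with pileups of 58 and 45. H2O2 2 alone had peaks at nt 819 to 918 (pileup 142, fold 11.9) and nt 1299 to 1473 (183, fold 17.0). The H2O2 lists therefore called the gene at different places.

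DDIT4 and SESN2 encode inhibitors of the growth kinase complex mTORC1. DDIT4 was called in H2O2 2, at nt 39 to 185 of NM_019058 (pileup 268, fold 6.48) and nt 483 to 582 (151, fold 4.40), and in Starve 2, at nt 1484 to 1665 (192, fold 15.3). It had no peak in WT, KO or UT, nor in the other replicate of H2O2 or Starve.

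SESN2 was called at 2 places by several lists. The first, nt 85 to 317 of NM_031459, had pileups of 377 in WT 2, 312 and 223 in KO and 81 in Starve 2, with folds of 3.86, 9.14, 6.58 and 2.32. The control level in WT 2 was 97.0 reads, against 33.3 and 33.1 in the KO lists. Within their own lists these folds stood at the 51.9th percentile in WT 2, the 95.9th and 90.6th in KO and the 7.43rd in Starve 2, while the WT 2 pileup stood at the 87.2nd. The second place, nt 1743 to 1905, was called in H2O2 1 (pileup 91) and both Starve lists (46 and 71). Single lists added nt 1129 to 1231 in UT 2, nt 2201 to 2421 in Starve 1 and nt 3209 to 3309 in UT 1.

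Among the biosynthetic enzymes, ASNS (asparagine synthetase) was called near its start in 1 WT and 1 UT list. All 4 of its transcripts with a peak were called at nt 88 to 187 in WT 2 with a pileup of 51, and at nt 125 to 224 in UT 2 with a pileup of 25 or 26. It had no peak in KO, H2O2 or Starve.

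PSAT1, an aminotransferase of serine synthesis, was called in both KO lists, H2O2 1 and both Starve lists, and in no WT or UT list. Near the start, at nt 83 to 202 of NM_021154, KO 1 had a pileup of 429 and H2O2 1 one of 288. Further in, KO 1 and KO 2 shared nt 846 to 1046 of the other transcript, NM_058179, with pileups of 262 and 207 and folds of 5.40 and 4.33. Starve 2 was called at nt 621 to 720 of both transcripts, and Starve 1 at nt 1226 to 1349 and nt 1516 to 1615 of NM_021154. The 2 transcripts had peaks at nearly equal positions up to nt 720, and from nt 1226 of NM_021154 the same peaks lay 138 nt later on NM_058179. The KO region of NM_058179 lies between these points, and no list called it on NM_021154.

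CHAC1, an enzyme that degrades glutathione, had its only region at nt 73 to 189, on both of its transcripts. On NM_001142776 the pileup was 333 and 300 in KO and 73 in Starve 2, with folds of 3.93, 5.05 and 2.50. On NM_024111 it was 323, 297 and 70, so the transcripts gave nearly the same values. The KO pileups lay at the 81.5th and 81.8th percentile of their lists, and the control levels, 83.9 and 58.6 reads, at the 81.9th and 75.8th.

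**Figure D3:**
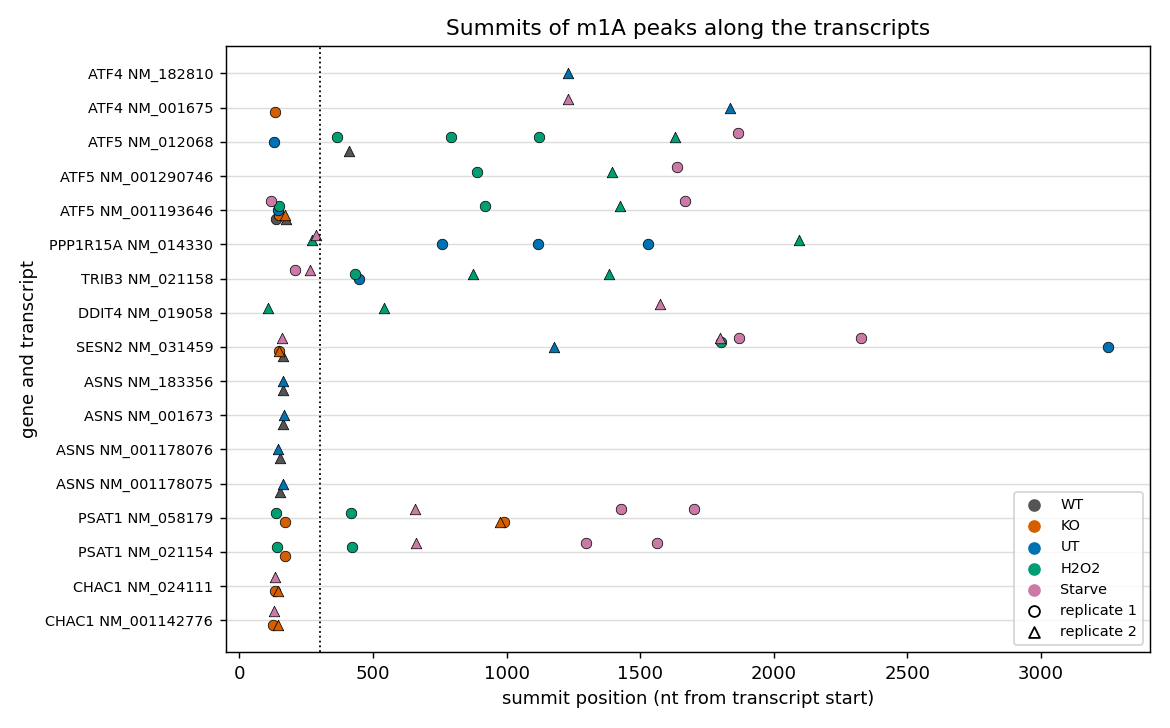
Summit position (nt from transcript start) of the 77 peaks on 17 transcripts, coloured by condition, with circles for replicate 1 and triangles for replicate 2 and a dotted line at 300 nt. WT and KO summits gather left of the line, and most H2O2 and Starve summits lie to its right.

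Position along the transcript differed between the 2 sets of libraries. In WT 7 of 8 peaks of these genes had their summit within 300 nt of the start (87.5%, against 67.2% of all WT peaks), and in KO 11 of 13 (84.6%, against 72.4%). In UT it was 6 of 14 (42.9%, against 34.4%), in H2O2 5 of 21 (23.8%, against 38.3%) and in Starve 7 of 21 (33.3%, against 30.9%). The KO exception was the inner PSAT1 region. The WT exception was the WT 2 peak of ATF5 at nt 356 to 455 of NM_012068. At the 205 nt offset between the transcripts it falls within the WT 2 peak at nt 66 to 250 of NM_001193646. That peak was counted as near the start, so 1 signal may be counted on both sides. Peaks on isoforms repeat each other in these counts. Over 29 isoform pairs of 1 list with equal peak length and near-equal pileup, 17 had the same pileup. Over all 29 pairs the summits differed by a median of 3 nt and at most 23 nt within the peak, so a summit is not fixed to the nucleotide by these lists.

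KO was compared with WT for regions called in 1 genotype and not in the other. Dependence on ALKBH3 was not tested. A region counted for a group if it was in both lists of that group and absent from both lists it was compared with. CHAC1 at nt 73 to 189 and PSAT1 at nt 846 to 1046 were called in KO and not in WT, 2 of the 6 genes with a region there, against 18.9% of all genes. For WT and not KO the count was 0 of 6, against 5.2%. Neither CHAC1 nor PSAT1 had any peak in WT. The CHAC1 region was however also called in Starve 2, from wild-type cells, whereas the PSAT1 region was called in the KO lists only. With 2 lists against 2, no exact test of a single region can give a p below 0.333, so these are calls and not tested differences. CHAC1 and PSAT1 were also called with each of the 4 lists left out in turn. By the rule, leaving out a list can only keep or add calls, so neither could be lost. The share of all genes was 34.9% without KO replicate 1 and 22.6% without WT replicate 1. Leaving out WT replicate 2 added SESN2, which made 3 genes (33.6% of all genes in that setting), and leaving out KO replicate 2 added ATF4, which also made 3 (33% of all genes). Leaving out WT replicate 1 gave 2 genes in WT and not in KO (ATF5 and ASNS), where 30.4% of all genes were called, since 1 list then sufficed.

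H2O2 was compared with UT for sites that change under oxidative stress. None of the 8 genes with a region was called in both H2O2 lists and neither UT list, against 2.33% of all genes, nor in both UT lists and neither H2O2 list, against 5.49%. The 2 H2O2 lists shared no region of any of the genes. Where 1 list sufficed, the counts depended on it: without H2O2 replicate 1 they were 4 genes (ATF5, DDIT4, TRIB3 and PPP1R15A), against 21.7% of all genes, and without H2O2 replicate 2 they were 3 (ATF5, PSAT1 and SESN2), against 37.4%. Without UT replicate 1 or 2, 3 genes each were called in UT and not in H2O2, against 54.8% and 48.8% of all genes.

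Starve and UT were compared for sites that change without serum, and they share the UT lists with the comparison above. TRIB3 at nt 151 to 348 and SESN2 at nt 1757 to 1905 were called in both Starve lists and neither UT list, 2 of 9 genes against 5.34% of all genes. For UT and not Starve it was 0 of 9, against 4.06%. Both genes also had peaks elsewhere in UT, 1 for TRIB3 and 2 for SESN2. Both calls were lost with peaks of 4-fold or more, and TRIB3 was also lost when the −log10 q-value had to be at least 5 and when each list was limited to equally many top peaks. Counted by gene instead of region, neither was called, and PSAT1 was, with peaks at different places in the 2 Starve lists. Leaving out Starve replicate 1 gave 7 genes, against 42.8% of all genes, and leaving out Starve replicate 2 gave 4, against 51%, since 1 list then sufficed. Without UT replicate 1 or 2 the genes were TRIB3 and SESN2, against 7.74% and 7.91% of all genes. By the rule these calls could not be lost there. In UT and not in Starve 3 and 4 genes were then called, against 42.4% and 36.6% of all genes.

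UT and WT are both untreated wild-type cells by the labels and serve as a reference. Of the 6 genes with a region 0 were called in UT and not WT, against 6.58% of all genes, and 0 in WT and not UT, against 2.98%. Dropping UT replicate 1 changed the counts to 2 and 1, where 69.1% and 5.69% of all genes were called. Dropping UT replicate 2 gave 4 and 0 (63.5% and 5.83% of all genes), and dropping WT replicate 1 gave 0 and 2 (7.17% and 15.5%).

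Of 70 other genes of the pathway, kinases, initiation factors, transporters, tRNA synthetases and chaperones among them, 61 had a peak. No share of all RefSeq genes was taken to set beside that count. In KO and not WT 5 of 42 with a region were called: PCK2 (folds 7.56 and 5.34), GARS1 (5.39 and 5.14), PPP1CA (3.75 and 5.23), EIF2S2 (3.83 and 3.73) and the amino acid transporter SLC38A2 (3.15 and 3.98). That is 11.9%, below the 18.9% of all genes, and NUPR1 alone was called in WT and not KO (2.38%, against 5.2% of all genes). In H2O2 and not UT the kinase EIF2AK4 alone was called (2.35 and 5.19), 1 of 57 or 1.75%, against 2.33% of all genes. In UT and not H2O2 4 of 57 were called (PYCR1, GPT2, SARS1 and PPP1CC), 7.02% against 5.49%. In Starve and not UT 3 of 57 were called: the leucyl-tRNA synthetase LARS1 (5.10 and 17.1), STC2 (4.45 and 11.2) and NFE2L1 (2.97 and 4.36). That is 5.26%, against 5.34% of all genes. STC2, in another region, and the chaperone HSPA5 were called in UT and not Starve, 2 of 57 or 3.51%, against 4.06% of all genes. SLC7A1, PYCR1, GPT2 and HSPA5 were called in UT and not WT, 4 of 50 or 8%, against 6.58% of all genes. NFE2L2 and NUPR1 were called the other way, 2 of 50 or 4%, against 2.98%. SLC7A1 had a peak in all 10 lists and SARS1 and XPOT in 9, more than any of the 10 genes.

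Coverage of the demethylase-treated KO library was set against IP coverage for 4 of the genes. The windowed KO files held 222 and 178 windows of these genes, on ATF5, CHAC1, PSAT1 and SESN2, and the WT files held 0, so KO could not be compared with WT. The 2 deposited demethylase columns of KO were the same profile up to a constant, in 776 of 776 regions with at least 10 shared windows (ratio constant within 1e-06). The same held for 351 of 351 regions in WT, whereas the IP columns were in a constant ratio in 0 of 778 and 0 of 355. The demethylase-treated libraries were therefore counted as 1 sample for each genotype, and the windows are described without a test.

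Each profile was written as a percentage of its own sum over windows paired between the 2 KO files. Paired windows start up to 2 nt apart, and the difference between IP profiles includes that offset. The share of coverage that sits elsewhere in 1 profile than in another was then summed over windows. For ATF5 this was 11.6% and 11.99% between the demethylase-treated profile and the 2 IP profiles, and 7.09% between the IP profiles. PSAT1 gave 7.27% and 10.3%, against 4.13% between the IP profiles, and SESN2 5.17% and 6.25%, against 3.56%. CHAC1 gave 10.6% and 8.53% on NM_024111, against 3.87%, and 6.45% and 5.49% on NM_001142776, against 5.38%. All 5 mean shares exceeded the difference between IP replicates, as in 81.6% of 2101 KO regions. The 5 lay between the 18.9th and the 64.1st percentile of these regions, whose quartiles were 6.34% and 14.3%.

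The profiles differed in different directions. For ATF5 the centre of the demethylase-treated coverage lay 12.5 and 15.2 nt nearer the transcript start than that of the IP profiles. At nt 71 to 80 it held 1.47% of coverage against 0.510% in IP replicate 1, and 0.340% in the paired replicate 2 window from nt 73. At nt 171 to 180 it held 3.16% against 3.95%, and 4.05% in the paired replicate 2 window from nt 173. PSAT1 was shifted the same way, by 6.70 and 9.52 nt. For CHAC1 the window at nt 83 to 92 of NM_024111 held 1.88% against 3.56% in IP replicate 1, and 3.50% in the paired replicate 2 window from nt 82. The centre lay 6.17 and 3.65 nt further from the start. On NM_001142776 the CHAC1 shifts had opposite signs, 3.60 nt further in 1 file and 0.307 nt nearer in the other. For SESN2 the centres lay 0.89 and 3.63 nt nearer the start. Across the 2101 regions the quartiles of the mean shift were 5.69 nt nearer and 5.97 nt further, so ATF5 and PSAT1 lie outside them, at the 9.38th and 18.4th percentile. The number of reads behind a profile is not known. The demethylase share of ATF5 stood at 4.74% in each window from nt 136 to nt 155, so it moved in coarse steps. With 1 demethylase sample its sampling noise could not be measured, and the difference between IP replicates does not include it.

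**Figure D4:**
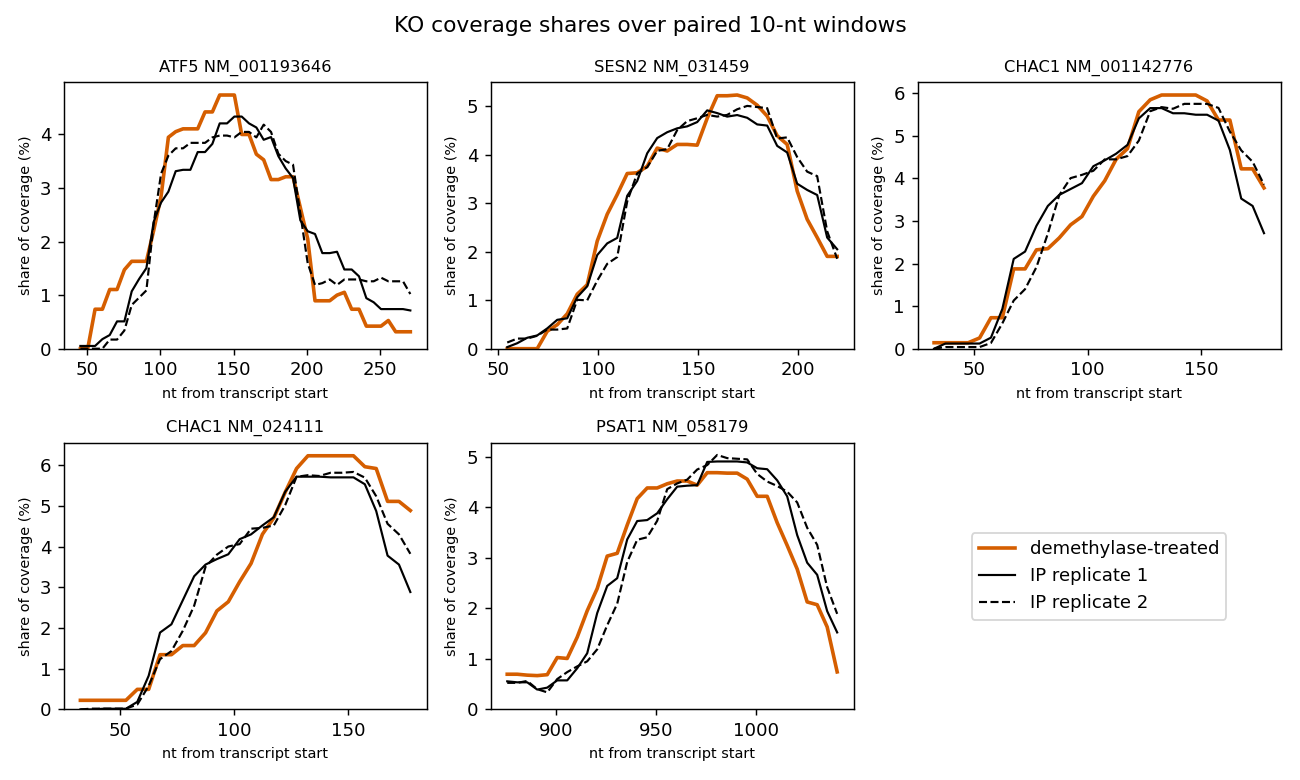
Share of coverage (%) in KO over windows of 10 nt, against position (nt from transcript start), for the demethylase-treated profile (orange) and IP replicates 1 and 2 (black, solid and dashed). In ATF5 and PSAT1 the orange profile lies to the left of both IP profiles, and in CHAC1 it is below them around nt 83 to 92. IP replicate 2 is drawn at the positions of the paired replicate 1 windows, up to 2 nt away.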

How the data were processed

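Per the submitters' processing notes, Trim Galore, HISAT, MACS2 and build hg19 were used, and versions, order and the control of each list are not given in the sources used here. Per the file headers, the deposited MACS2 lists give for each peak a pileup signal (coverage at the summit), a fold enrichment, and −log10 p-value and q-value, on RefSeq transcripts in place of chromosomes and for each replicate separately. Percentiles were taken within a list, whereas pileups, folds and control reads of different lists are printed side by side without scaling between lists. The fold limit of 4 was the same for all lists, whose median folds ran from 3.62 in KO 2 to 8.27 in H2O2 2. The deposited windowed files give IP and demethylase coverage signal for windows of 10 nt placed every 5 nt, scaled to sum to about 200 per region, and a score equal to their difference. Genomic positions, exons and untranslated regions were not used here. Total reads are unknown.

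Symbols came from a RefSeq table of GRCh38.p14 (17019 of 17315 transcripts matched). Peaks were merged into regions at 1 nt of overlap, with Python 3.11.15, pandas 2.3.3, numpy 2.4.6 and scipy 1.17.1. The code of the region calls was checked on planted regions whose lists were set by hand. That checks how the rule is applied and not how reliable a called peak is. Windows of the 2 KO files were paired when their starts lay within 2 nt, in regions with at least 20 pairs. The planned limma fit of windows was not run, since the demethylase columns repeat 1 profile. The genes and the pathway list were chosen with earlier results of these data known, as were the 300 nt limit and the control levels. By rule all 10 genes are named, and of the pathway list at most 6 genes per comparison by the lower of their folds, with the 3 called in most lists. The alternatives were fold of 4, −log10 q-value of 5, 50% overlap, genes as units, equal numbers of top peaks, and leaving out each list.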

Additional observations from a re-analysis of the deposited data

How the results depend on the processing

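Of 74 recomputed counts of these genes, 55 stayed within 1.5 times the reported count and 19 did not. A count of 3 against 2, or a 0 that stayed 0, was among the 55. Leaving out a list can only keep or add genes by the rule, so the 55 do not measure how stable the calls are. The count in Starve and not UT, reported as 2, was 0 with peaks of 4-fold or more and 1 each when the −log10 q-value was at least 5, with genes as units and with equal numbers of top peaks. Genes called, summed over the 10 lists, fell from 39 to 22 with 4-fold peaks and to 20 with 2126 top peaks per list, where fewer peaks were kept by construction. Leaving out 1 list at a time gave 2 to 3 genes in KO and not WT, 0 to 2 in WT and not KO, 0 to 4 in H2O2 and not UT, 0 to 3 in UT and not H2O2, 2 to 7 in Starve and not UT, 0 to 4 in UT and not Starve, 0 to 4 in UT and not WT, and 0 to 2 in WT and not UT.

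No paired analysis was possible because the call counts come from no test, no window of these genes is in the WT files, and the demethylase replicates repeat 1 profile. For the same reasons the alternatives planned for the windows were not run. The depth of the libraries is unknown, and an uncalled region has no value.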
